A study of Mus musculus with 6 samples.

Results

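The genes described here are 10 negative regulators and transcription factors of the mitogen-activated protein kinase (MAPK) pathway, namely *Dusp1*, *Dusp4*, *Dusp5*, *Dusp6*, *Spry1*, *Spry2*, *Spry4*, *Spred1*, *Etv4* and *Etv5*. They were chosen by symbol from the 20405 genes measured, and where a gene had more than 1 probe set the brightest by mean over the 6 arrays was taken. RNA was measured on Affymetrix mouse gene arrays in the M0505 cell line (3 arrays), an ovarian surface epithelial line of FVB/N mice used at early passage, and in the STOSE cell line (3 arrays), which arose from M0505 by spontaneous transformation during prolonged culture. The labels name no transgene or deletion in either line. The paper's karyotypes found aneuploidy in both lines, with terminal deletions of chromosomes 1 and 4 in all M0505 cells examined. Most STOSE cells were near-triploid, and all those examined had an addition at the end of chromosome 4. Loss of chromosomes 3 and 8 was reported for both lines, of chromosome 12 for M0505 and of chromosome 5 for STOSE. Both lines were grown in the same medium, with 4% fetal calf serum and epidermal growth factor (EGF) at 0.002 μg/mL. Each line is a single isolate, and the arrays are labelled biological replicates without a statement of how the cultures were separated, so p-values measure the spread between these samples, which may be technical. In RNA from a whole culture, a smaller number of expressing cells and less RNA per cell cannot be told apart.

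In this pathway a growth factor receptor activates RAS, and the signal passes through the RAF, MEK and ERK kinases to the nucleus. Active ERK switches on genes whose products act back on the pathway. Dual specificity phosphatases remove the activating phosphates from ERK and related kinases, Sprouty and SPRED proteins act upstream between the receptor and RAF, and ETV4 and ETV5 are ETS family transcription factors that carry the signal to target genes. Because their RNA rises with ERK activity in many cells, these genes are often read together as a gauge of the pathway, and EGF receptor signaling is a known input in the ovarian surface epithelium.

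The 10 genes did not move as a block. *Spry1* was 5.18-fold higher in STOSE cells, *Spry2*, *Dusp5*, *Spred1*, *Dusp4* and *Dusp1* were higher by 1.32-fold to 1.66-fold, *Etv5* and *Spry4* were lower, and *Dusp6* and *Etv4* were not past the test. Values are log2 robust multi-array average (RMA) values, a log2 fold change is the STOSE mean minus the M0505 mean, and each gene was tested with limma with Benjamini-Hochberg adjustment over all 20405 genes. Calls of a change required 2-fold or more together with an adjusted p below 0.05. By that rule 1 of the 10 genes (*Spry1*) was higher, against 4.9% of all genes, and none was lower, against 7.59% of all genes. At an unadjusted p under 0.05 and 2-fold there was also 0 lower among them, both by limma and by the methods' t-test. At the adjusted p alone 6 of the 10 were higher and 2 were lower, against 31.6% and 24.8% of all genes (56.5% in either direction). The arrays of the lines did not overlap for those same 8 genes, 6 of them higher and 2 lower, against 37.6% and 27.0% of all genes (64.6% in either direction). Their median log2 fold change was 0.42, beside 0.08 over all genes, and the median size of the change was 0.43, beside 0.25.

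**Figure D1:**
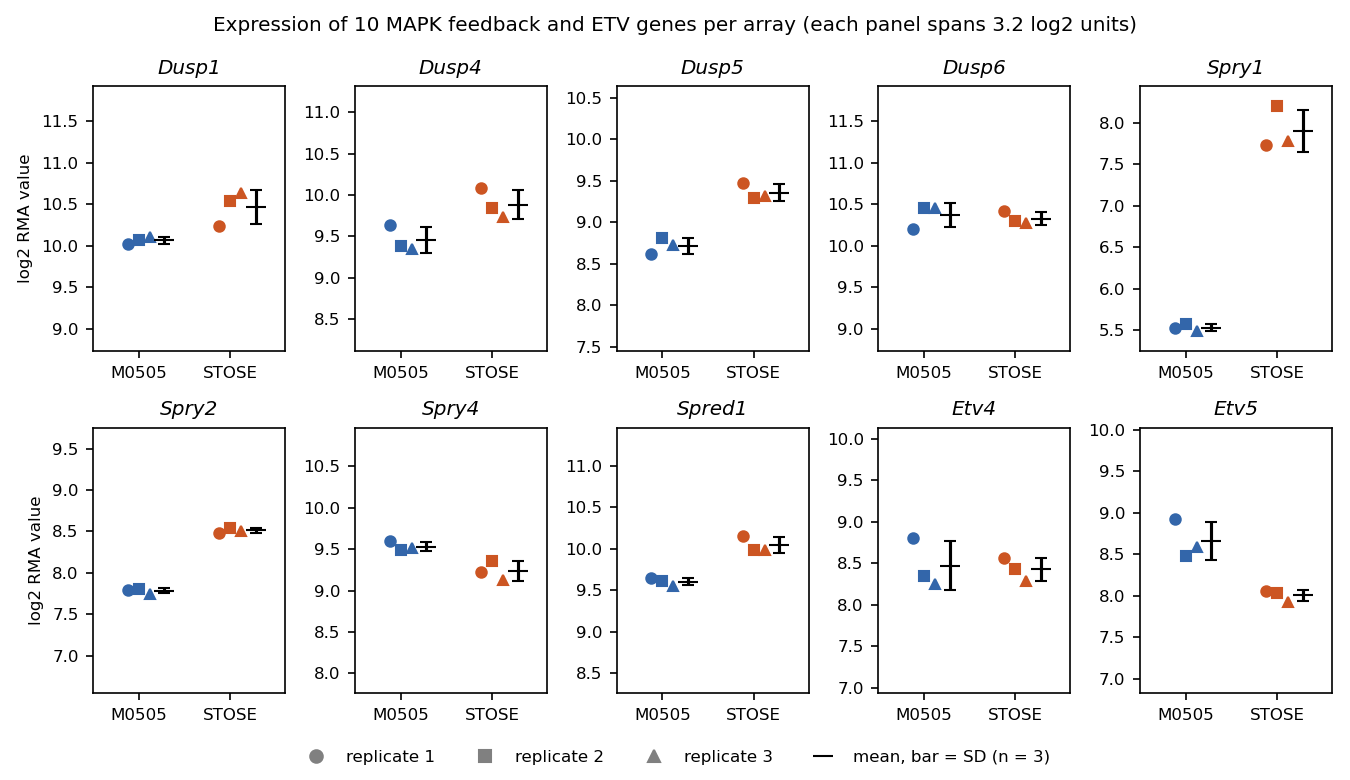
Log2 RMA value of each of the 10 genes (y axis, each panel spanning the same length of scale) on the 3 M0505 and the 3 STOSE arrays, with symbols for the replicate number and black bars for mean and SD (n = 3). *Spry1* stands apart, with all M0505 arrays at 5.58 or lower and all STOSE arrays at 7.73 or higher, while the arrays of *Dusp6* and *Etv4* overlap between the lines.

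Among all genes, the centre of the scale bears on the small changes. When each array was centred on the median of its genes, every log2 fold change shifted upward by 0.20. The calls over all genes went from 1000 higher and 1548 lower to 1466 higher and 1177 lower (39.2% against 55.5% of calls higher). The median log2 fold change of all genes was then 0.28, against 0.08 without centring and 0.05 with a further quantile normalization. Centring thus moved that median further from no change. In both lines the means of all 10 genes lay above 4.74, a background level. It was set so that 95% of the single-array values of olfactory receptor probe sets fell below it. Of all 20405 genes, 5643 were under it in both lines. The shares and medians given for all genes therefore include genes near background, while the 10 genes do not. Of 10 ovarian surface epithelium markers, 9 lay above that level in both lines and *Lhx9* did not. By the calling rule 4 were lower in STOSE cells (*Krt7*, *Krt8*, *Krt19* and *Amhr2*), against 7.59% of all genes. At the adjusted p alone 9 were lower and 0 higher, against 24.8% and 31.6% of all genes. The sum of the 10 log2 values of that list ran from 107.7 to 108.7 on M0505 arrays and from 87.8 to 90.4 on STOSE arrays. Of markers of other cells, called falls were 1 of 4 granulosa (*Inha*), 1 of 4 leukocyte (*Cd68*) and 1 of 3 endothelial genes (*Kdr*). Called rises were 1 of 4 stromal (*Thy1*) and 1 of 3 oviduct genes (*Ovgp1*). Falls were called for 7.59% of all genes and rises for 4.9%. At the adjusted p alone granulosa markers had 0 higher and 2 lower, leukocyte markers 1 and 1, and endothelial markers 1 and 2. Stromal markers had 3 and 1 and oviduct markers 3 and 0, against 31.6% and 24.8% of all genes. Past the adjusted p, *Cd3e* (0.22), *Cdh5* (0.20) and *Dcn* (−0.45) moved against the called gene of their list. The summed log2 values went from between 24.5 and 24.7 to between 19.9 and 20.8 for granulosa markers, from between 22.8 and 22.9 to between 20.0 and 20.6 for leukocyte markers, from between 19.0 and 19.2 to between 13.6 and 13.9 for endothelial markers, from between 36.0 and 36.5 to between 38.7 and 39.4 for stromal markers and from between 15.1 and 15.1 to between 17.1 and 17.7 for oviduct markers. Of the granulosa markers, *Fshr* and *Cyp19a1* were under the olfactory receptor level in both lines, and *Foxl2* and *Inha* were above it in both. Of the leukocyte markers, *Ptprc* and *Itgam* were under that level in both lines, and *Cd68* and *Cd3e* were above it in both. Of the endothelial markers, *Pecam1* was under it in both lines, *Cdh5* was above it in both, and *Kdr* was above it in M0505 cells only. The falls of these 3 sums came mostly from 1 gene each, with log2 fold changes of −3.93 for *Inha*, −2.82 for *Cd68* and −5.17 for *Kdr*. The part of these shifts in the changes below was not tested.

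*Spry1*, *Spry2* and *Spry4* encode Sprouty proteins, which are induced by growth factors and dampen signaling between receptor and RAF, and the 3 genes moved in different directions. *Spry1* had log2 values of 5.52, 5.58 and 5.49 on the M0505 arrays and 7.73, 8.20 and 7.78 on the STOSE arrays. The lowest STOSE array was above the highest M0505 array by 2.15, and STOSE replicate 2 was the highest of its line. The mean rose from 5.53 ± 0.04 (SD, n = 3) to 7.90 ± 0.26 (SD, n = 3), a log2 fold change of 2.37 (standard error 0.12, limma adjusted p = 8.79e-07). *Spry1* ranked 128 from the top among the 20405 genes. Leaving out 1 array at a time gave 2.22 to 2.46.

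*Spry2*, which encodes a Sprouty protein with the same role, showed the tightest replicates of the 10. Its log2 values were 7.80, 7.81 and 7.75 in M0505 cells and 8.48, 8.55 and 8.51 in STOSE cells. All STOSE arrays lay above all M0505 arrays, and the residual SD within a line was at percentile 4.16 of all genes. The log2 fold change was 0.73, or 1.66-fold (standard error 0.06, limma adjusted p = 9.07e-06). *Spry4* went the other way, with log2 values of 9.59, 9.49 and 9.51 in M0505 cells and 9.22, 9.36 and 9.13 in STOSE cells. Its arrays did not overlap, though the gap between the lowest M0505 and the highest STOSE array was 0.13. The log2 fold change was −0.29 (standard error 0.07, adjusted p = 0.00929), a 1.23-fold fall. *Spry4* was under 2-fold, and its place past the adjusted p depends on the centre of the scale. With centred arrays the log2 fold change of *Spry4* was −0.09 (adjusted p = 0.254, the highest of its alternatives, which began at 0.00402). A further quantile normalization left *Spry4* past the threshold, at −0.26 (limma adjusted p = 0.0169).

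*Spred1* encodes a Sprouty-related protein that brings neurofibromin, a brake on RAS, to the membrane. Its log2 values were 9.64, 9.61 and 9.56 on M0505 arrays and 10.15, 9.99 and 9.98 on STOSE arrays. Every STOSE array was higher than every M0505 array, by at least 0.34. The rise of 0.44 (standard error 0.07, adjusted p = 0.000635 from limma) was 1.36-fold. The 95% limits of the log2 fold changes were 2.10 to 2.64 for *Spry1*, 0.60 to 0.86 for *Spry2*, 0.28 to 0.60 for *Spred1* and −0.46 to −0.12 for *Spry4*. Those of *Spry1* and of *Spry4* overlapped none of the others, while those of *Spred1* ended just below those of *Spry2*. The differences between genes were not themselves tested.

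**Figure D2:**
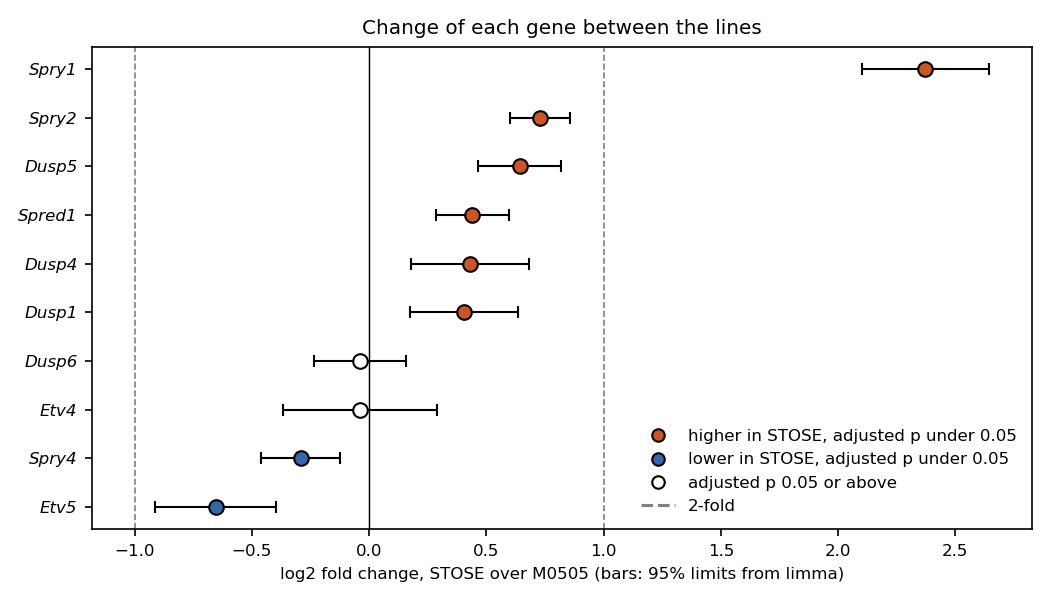
Log2 fold change of each gene, STOSE over M0505 (x axis), with 95% limits from limma as bars, dashed lines at 2-fold, and fill colour for the direction of genes with an adjusted p under 0.05. *Spry1* at 2.37 is the 1 gene past 2-fold, 5 genes lie between 0.41 and 0.73, *Dusp6* and *Etv4* sit at −0.04, and *Spry4* and *Etv5* lie below 0.

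The *Spry1* promoter is shown because this gene changed most. Promoter sequences are from RefSeq, assembly GRCm38.p6, and cover the 250 bases before the annotated start, written 5′ to 3′ on the strand of the gene, with capitals for a motif match. The expression table names no genome build, so these positions are those of RefSeq alone. A window was given for 7 of the 10 genes, and 8 windows in all, since *Etv5* had 2.
*Spry1*, chr3:37639697-37639946, plus strand: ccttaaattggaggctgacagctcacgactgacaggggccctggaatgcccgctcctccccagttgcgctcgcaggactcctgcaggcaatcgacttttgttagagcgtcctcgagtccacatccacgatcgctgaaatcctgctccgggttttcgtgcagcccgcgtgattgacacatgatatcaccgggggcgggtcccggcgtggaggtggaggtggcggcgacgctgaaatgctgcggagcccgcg
Of this *Spry1* sequence, 62.4% of bases were G or C, and it held 23 CG pairs, beside medians of 52.4% and 6 over 32544 windows. It held no match to an AP-1 site (TGANTCA), a cyclic AMP response element (TGACGTCA), an ETS site (CCGGAAGT), capicua sites (TGAATGAA and TGAATGGA), an EGR site (GCGTGGGCG) or a CArG box, searched on both strands from 250 bases before to 50 after the start. The AP-1, ETS, capicua and EGR motifs had no match in any of the 8 windows, and they occur in 7.79%, 3.92%, 1.31%, 1.19% and 0.618% of all windows, in the order named. Absence says only that these letters are not in the window.

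Of the 4 dual specificity phosphatase genes, 3 were higher at the adjusted p, against 31.6% of all genes, and *Dusp6* was not past the test. None of the 4 reached 2-fold, and by the methods' t-test with adjustment 1 of the 4 (*Dusp5*) was higher. *Dusp5* encodes a nuclear phosphatase selective for ERK. Its log2 values were 8.62, 8.81 and 8.72 in M0505 cells and 9.47, 9.29 and 9.32 in STOSE cells. The STOSE arrays were all higher, with a gap of 0.48 between the lines. The log2 fold change was 0.64, or 1.56-fold (standard error 0.08, limma adjusted p = 0.00014), and leaving out 1 array at a time gave 0.59 to 0.69.

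*Dusp6* encodes the cytoplasmic phosphatase selective for ERK, and its RNA is among the usual gauges of ERK activity. Its log2 values were 10.20, 10.45 and 10.45 on M0505 arrays and 10.41, 10.30 and 10.27 on STOSE arrays. The lines overlapped, since M0505 replicate 1 was the lowest of the 6 arrays and the other M0505 arrays were the highest. The log2 fold change was −0.04 with 95% limits of −0.23 and 0.16 (adjusted p = 0.713 from limma), so a change of 2-fold in either direction lies outside the limits. Its sign was not stable, at 0.16 with centred arrays. The limits of *Dusp6* did not overlap those of *Dusp5* (0.46 to 0.82).

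*Dusp1* and *Dusp4* encode nuclear phosphatases with a wider range, acting on the stress kinases p38 and JNK as well as on ERK, and *Dusp1* is an immediate early gene induced by stress and serum. *Dusp1* had log2 values of 10.02, 10.07 and 10.10 in M0505 cells and 10.24, 10.54 and 10.63 in STOSE cells. The lines did not overlap, and STOSE replicate 1 lay nearest to the M0505 arrays, at a gap of 0.13. *Dusp1* rose by 0.41 (standard error 0.10, adjusted p = 0.00872 from limma), and by 0.52 without that array. *Dusp4* had log2 values of 9.64, 9.39 and 9.35 in M0505 cells and 10.08, 9.85 and 9.73 in STOSE cells. In each line replicate 1 was the highest, and the gap between the lines was 0.09. *Dusp4* rose by 0.43 (standard error 0.11, adjusted p = 0.0101 from limma). Both genes were past the threshold in limma with each array left out, at adjusted p of 0.042 or lower, and neither was past it by the methods' t-test with adjustment (0.0575 for *Dusp1*, whose alternatives began at 0.000383, and 0.0667 for *Dusp4*, whose alternatives began at 0.000763). Over all alternatives their log2 fold changes ran from 0.32 to 0.61 and from 0.33 to 0.63.

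The promoters of *Dusp5* and *Dusp1* are shown because they were the only ones among the 8 windows with a match to a motif searched.
*Dusp5*, chr19:53528895-53529144, plus strand: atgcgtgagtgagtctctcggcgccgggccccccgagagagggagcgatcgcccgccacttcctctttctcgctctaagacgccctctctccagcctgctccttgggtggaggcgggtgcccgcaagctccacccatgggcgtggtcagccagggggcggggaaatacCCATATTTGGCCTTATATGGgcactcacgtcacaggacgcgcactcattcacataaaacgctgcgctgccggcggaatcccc
*Dusp1*, chr17:26508473-26508722, minus strand: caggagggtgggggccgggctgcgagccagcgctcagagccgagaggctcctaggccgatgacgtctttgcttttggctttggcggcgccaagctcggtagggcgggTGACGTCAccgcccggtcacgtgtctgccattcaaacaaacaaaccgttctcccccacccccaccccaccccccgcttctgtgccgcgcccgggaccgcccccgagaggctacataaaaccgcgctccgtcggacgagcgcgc
The capitals in the *Dusp5* sequence mark a pair of CArG boxes, the sequence bound by serum response factor, which lie end to end and start 82 and 72 bases before the annotated start. A CArG box occurs in 1.64% of all windows. The capitals in *Dusp1* mark a cyclic AMP response element (TGACGTCA), 143 bases before the start, a motif found in 1.8% of all windows. The windows of *Spry1*, *Spry2* and *Spred1*, which rose as *Dusp5* and *Dusp1* did, held none of these motifs. Those of *Dusp6* and *Etv5*, which were not higher, held none either. A match is a description of the letters and not evidence of binding, and its part in expression was not tested.

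*Etv5* and *Etv4* encode related ETS transcription factors of the PEA3 group, which are induced by fibroblast growth factor and ERK signaling and are repressed by the protein capicua. *Etv5* had log2 values of 8.92, 8.47 and 8.59 in M0505 cells and 8.05, 8.04 and 7.92 in STOSE cells. Every M0505 array was above every STOSE array, with M0505 replicate 1 the highest. *Etv5* fell by 0.66, which is 1.58-fold (standard error 0.11, limma adjusted p = 0.00115), and by 0.52 without M0505 replicate 1. *Etv5* was the 1 gene of the 10 with a second probe set, on which M0505 arrays had 8.58, 8.20 and 8.31 and STOSE arrays 7.72, 7.67 and 7.68. The second probe set fell by 0.67 (adjusted p = 0.000474 from limma over all 23530 probe sets with a symbol). Numbers of Affymetrix probe sets run along the genome, and the 10 nearest numbers belonged to genes of chromosome 10 for the brighter *Etv5* probe set (10 of 10) and mostly of chromosome 16 for the other (9 of 10), while RefSeq places *Etv5* on chromosome 16. Both gave the same direction and nearly the same size.

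*Etv4* was the noisiest of the 10, with a residual SD at percentile 96.2 of all genes. Its log2 values were 8.81, 8.35 and 8.26 on M0505 arrays and 8.57, 8.43 and 8.29 on STOSE arrays. The lines overlapped fully, since the M0505 arrays included both the highest and the lowest value. The log2 fold change was −0.04 with 95% limits of −0.37 and 0.29 (adjusted p = 0.827 from limma), it was 0.13 without M0505 replicate 1, and its sign also turned with centred arrays, to 0.16. The limits did not overlap those of *Etv5*, which were −0.91 and −0.40, and the difference between the genes was not itself tested.

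Replicate 1 was the highest array for *Etv4*, *Etv5*, *Dusp4* and *Spred1* in both lines. It stood above its line mean by 0.34 for *Etv4* and by 0.26 for *Etv5* in M0505 cells, and by 0.14 and 0.05 in STOSE cells. In *Dusp6* it was the lowest M0505 array (0.17 under the mean) and the highest STOSE array (0.09 above it). The widest deviation in STOSE cells was that of *Spry1* in replicate 2, at 0.30 above the mean. Neither a batch nor a date is given for the arrays, and the part of the replicate in these values was not tested.

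**Figure D3:**
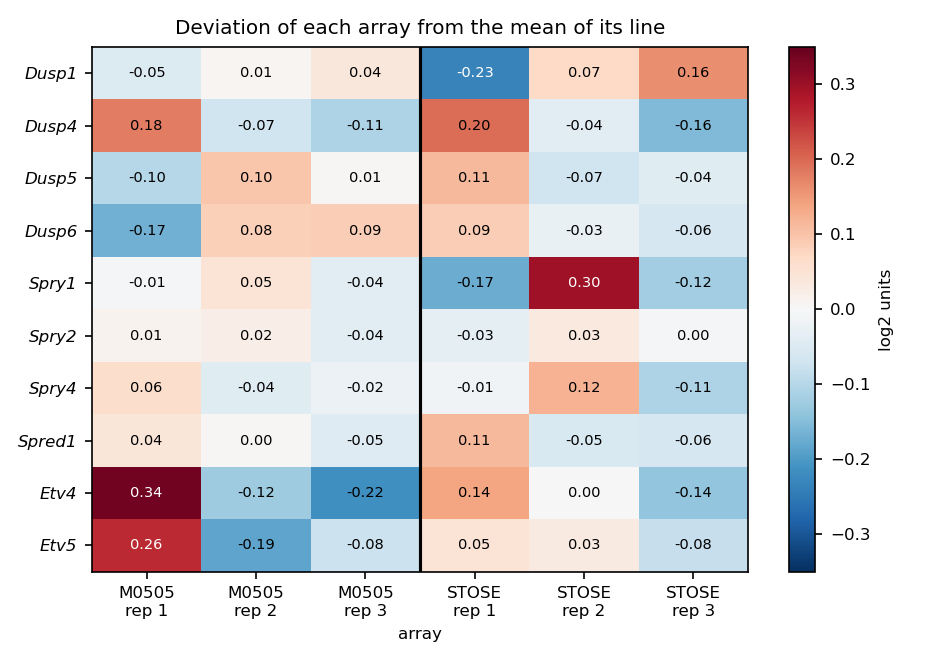
Deviation of each array (columns) from the mean of its line, in log2 units, for the 10 genes (rows), with red for values above the mean and blue for values below. M0505 replicate 1 lies above its line mean by 0.34 for *Etv4* and 0.26 for *Etv5*, and STOSE replicate 2 by 0.30 for *Spry1*.

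The other genes of the pathway were taken from 5 lists of 66 genes in all. Of these, 10 were called higher and 2 lower in STOSE cells, against 4.9% and 7.59% of all genes, and at the adjusted p alone 30 were higher and 23 lower, against 31.6% and 24.8%. The median log2 fold change of the 66 genes was 0.14.

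Of 20 genes of the kinase cascade, from adaptors to ERK and its RSK kinases, none was called in either direction (limma), against 12.5% of all genes. At the adjusted p alone 9 were higher and 6 lower, against 31.6% and 24.8% of all genes. An unadjusted p under 0.05 gave the same counts in limma and in the methods' t-test. The median was 0.13. *Map2k1*, encoding the kinase MEK1, fell by 0.92 (standard error 0.06, limma adjusted p = 5.49e-06). *Map2k2*, encoding MEK2, fell by 0.47. *Mapk3*, encoding the kinase ERK1, was lower, at −0.34 (adjusted p = 0.00316). It was not past the adjusted p with centred arrays (−0.14, adjusted p = 0.104, the highest of its alternatives, which began at 0.000625). With a further quantile normalization *Mapk3* stayed past it (−0.35, limma adjusted p = 0.00249). *Braf*, encoding a RAF kinase, was at −0.07 (adjusted p = 0.387), with a sign that turned with centred arrays (0.13).

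Of 16 other brakes on the pathway 1 was called higher and 1 lower, against 4.9% and 7.59% of all genes, and the median was −0.28. At the adjusted p alone 4 were higher and 9 lower, against 31.6% and 24.8% of all genes. *Errfi1*, encoding an inhibitor of the EGF receptor, rose from 8.52 ± 0.05 (SD, n = 3) to 9.82 ± 0.14, a log2 fold change of 1.29 (standard error 0.08, adjusted p = 2.88e-06 from limma). *Il17rd*, encoding the membrane inhibitor SEF, fell from 7.85 ± 0.32 to 6.68 ± 0.09, a log2 fold change of −1.17 (standard error 0.15, adjusted p = 0.000177), which was −0.97 and so under 2-fold with centred arrays. *Spred2*, the closest relative of *Spred1* on the list, was at 0.06 with 95% limits of −0.15 and 0.28 (adjusted p = 0.578), and its sign turned without STOSE replicate 1 (−0.03). With centred arrays *Spred2* was at 0.26 and past the adjusted p (0.0203 from limma), so its place depends on the centre of the scale.

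Of 6 other phosphatases of the same class, 2 were called higher and 0 lower, against 4.9% and 7.59% of all genes, and the median was 0.37. At an unadjusted p under 0.05 limma had 1 lower and the methods' t-test 0, with none at 2-fold. *Dusp10*, encoding a phosphatase that prefers p38 and JNK, rose 2.82-fold, from 6.13 ± 0.14 to 7.63 ± 0.05 (standard error of the log2 fold change 0.08, limma adjusted p = 1.36e-06). *Dusp7*, encoding a cytoplasmic phosphatase that acts on ERK as that of *Dusp6* does, rose from 8.85 ± 0.08 to 9.89 ± 0.08, by 1.04 (standard error 0.07, adjusted p = 4.85e-06), which lay close to 2-fold, and its lowest value with an array left out was 0.99.

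Of 12 other ETS genes and capicua partners, 1 was called higher and 0 lower, against 4.9% and 7.59% of all genes, and the median was 0.18. At the adjusted p alone 5 were higher and 5 lower, against 31.6% and 24.8% of all genes. The counts were the same at an unadjusted p under 0.05 in limma and in the methods' t-test. *Ets1*, encoding an ETS factor that ERK phosphorylates, rose from 6.19 ± 0.02 to 8.49 ± 0.12, by 2.29 (standard error 0.07, adjusted p = 6.89e-08 from limma). *Cic*, encoding capicua, fell by 0.72 (standard error 0.08, adjusted p = 0.000125). *Etv1*, the other member of the PEA3 group, was under the olfactory receptor level in both lines, at 3.96 and 4.15.

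Of 12 other genes used as ERK targets, 6 were called higher and 1 lower, against 4.9% and 7.59% of all genes, and the median was 0.91. This list, like the others, was written with earlier results of these data known. *Hmga2*, encoding a chromatin protein, rose by 4.13 (standard error 0.23, adjusted p = 1.52e-06 from limma), and *Fosl1*, encoding the AP-1 protein FRA1, rose by 3.78 (standard error 0.22, adjusted p = 2.15e-06). *Ccnd1* (cyclin D1) rose by 2.63, *Epha4*, an ephrin receptor gene, by 2.46, *Maff*, a small MAF factor gene, by 1.36 and *Egr1*, an immediate early factor gene, by 1.17, with adjusted p of 7.29e-05 or lower. *Fos*, also an immediate early gene, was the gene called lower, with a fall of 1.15 (standard error 0.18, adjusted p = 0.00059) that was under 2-fold without STOSE replicate 1 (−0.93) and with centred arrays (−0.95). *Epha2* rose by 0.65, and *Phlda1* was at −0.09 (adjusted p = 0.377), with a sign that turned with centred arrays (0.11).

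**Figure D4:**
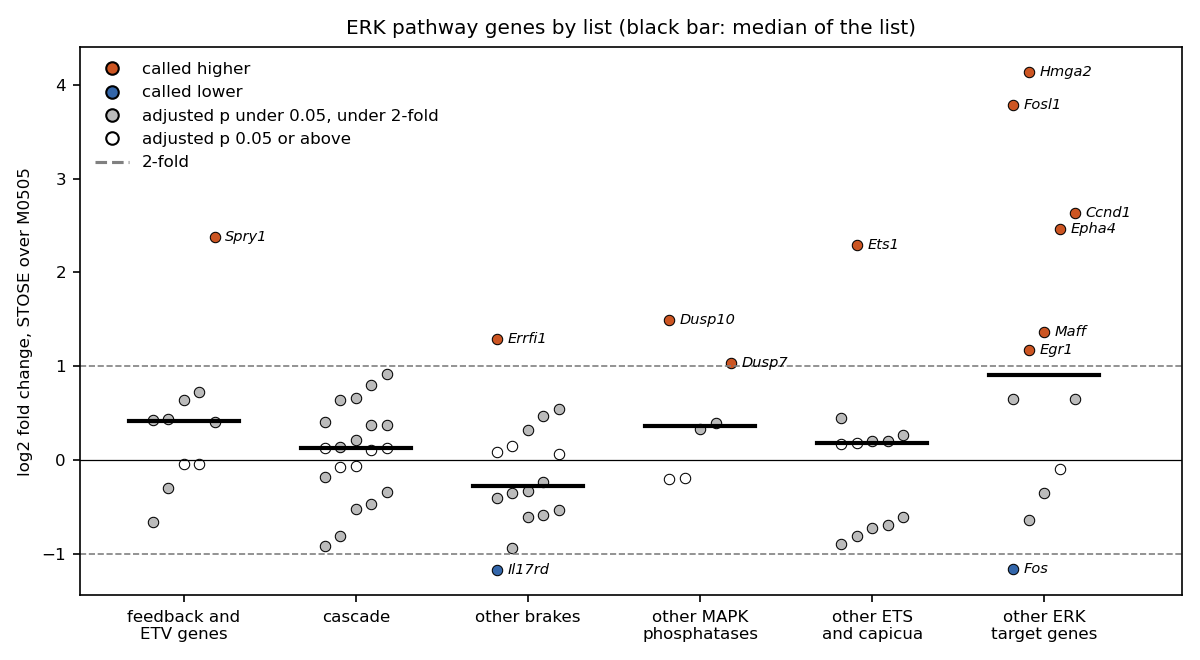
Log2 fold change, STOSE over M0505 (y axis), of the 10 feedback and ETV genes and of 5 lists of other ERK pathway genes (x axis), 1 point per gene, with a black bar for the median of each list, dashed lines at 2-fold and names for the genes called. The kinase cascade stays within 2-fold, and the list of other ERK target genes runs from −1.15 (*Fos*) to 4.13 (*Hmga2*).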

How the data were processed

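Total RNA of M0505 and STOSE cells (3 arrays each, 300 ng of RNA per array by the labels) was hybridized to Affymetrix mouse gene arrays. The authors normalized the arrays by RMA in Affymetrix Expression Console and deposited 1 table of log2 values per probe set. Neither a genome build nor an annotation release is given in the sources used here. The table also holds the authors' means and fold changes, which were not used, and 0 columns of values were left unmatched to a sample. Array files were not analysed here, so background correction could not be varied, and an array has no read depth, so the number of arrays limits the precision.

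Of the probe sets, 23530 carried a symbol, for 20405 genes. The brightest probe set by mean was kept per gene. STOSE and M0505 were compared by limma 3.58.1 (R 4.3.3; lmFit, then eBayes), without covariates, with Benjamini-Hochberg adjustment over all genes, and a call needed an adjusted p under 0.05 and 2-fold. The code was tested on simulated data. With 3 arrays a line, 0.1 is the smallest p of a two-sided exact permutation test, so none is given. Genes named are the 10 chosen ones, list genes past the calling rule, and 14 pathway genes fixed by name, of which 3 are not reported here. The members and lists were chosen with earlier results of these data known, and the motifs and the olfactory receptor measure of background after the values were seen. Alternatives were a further quantile normalization, centring of arrays, removal of the 25% or 50% of genes with the lowest means, averaging of probe sets, the methods' t-test (adjusted and unadjusted), limma's trend and robust options, a fold threshold of 1.5, a replicate block and each array left out.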

Additional observations from a re-analysis of the deposited data

How the results depend on the processing

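The counts for the 10 genes (1 called higher, 0 called lower, 8 past the adjusted p) stayed within 1.5 times their value under the 16 alternatives, except at a threshold of 1.5-fold, which called 3 higher and 1 lower. Within that range, the 8 past the adjusted p became 6 by the methods' t-test with adjustment and 7 with centred arrays. For the 66 pathway genes that threshold called 16 higher and 12 lower, and centred arrays called 0 lower. With each array left out the counts for the 10 genes stayed at 1 higher and 0 lower. Of the 10 genes, 5 kept direction and side of the adjusted p under all 16 alternatives (*Dusp5*, *Spry1*, *Spry2*, *Spred1* and *Etv5*). *Dusp6* turned sign with centred arrays (0.16) and ranged from −0.12 to 0.0037 with an array left out, and *Etv4* turned with a further quantile normalization (0.0027) and with centred arrays (0.16) and ranged from −0.15 to 0.13 with an array left out. Of the pathway genes named, *Braf* (0.13) and *Phlda1* (0.11) turned with centred arrays, and *Spred2* ranged from −0.027 to 0.14 with an array left out. With centred arrays *Spred2* (0.26, limma adjusted p = 0.0203) and *Etv1* (0.39, limma adjusted p = 0.00358) moved past the adjusted p. *Etv1* was also past it without STOSE replicate 1 (0.27, limma adjusted p = 0.00841). Centring adds the same amount to every gene, and the other causes were not tested. With the replicate number as a block, the 10 genes gave 1 higher and 0 lower and 8 past the adjusted p, the pathway genes 10 higher and 2 lower, and all genes 1001 higher and 1548 lower. Under the block none of the 31 genes named among the 10 and the pathway lists changed direction or its side of the adjusted p, and genes named elsewhere were not compared across the alternatives. Deviations from the line means of same-numbered arrays correlated at 0.26, 0.04 and 0.25 across genes, and 5 of 6 arrays correlated best with their own number, a hint of pairing in the data. The labels do not tie the numbers to a shared culture or day and 1 of the 3 correlations was under 0.1, so the fit without the block was kept. The number of arrays limits what small changes can be resolved, as the limits of *Dusp6* and *Etv4* show.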

Other observations

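*Spry1* lies on chromosome 3 in RefSeq, and the 5 protein-coding genes on each side of it were read after its value had been seen. Of these 10 genes, 2 were called higher in STOSE cells and 0 lower by limma, against 4.9% and 7.59% of all genes, and at the adjusted p alone 5 were higher and 2 lower, against 31.6% and 24.8% (6 and 2 at an unadjusted p under 0.05 in limma, 4 and 2 in the methods' t-test). *Spata5*, the gene next to *Spry1* on the lower side, rose from 6.64 ± 0.21 (SD, n = 3) to 7.97 ± 0.24, a log2 fold change of 1.32 (standard error 0.14, adjusted p = 6.55e-05 from limma), and *Fat4*, the third gene on the other side, rose from 4.64 ± 0.06 to 5.67 ± 0.12, by 1.03 (standard error 0.07, adjusted p = 7.15e-06), with its M0505 mean under the olfactory receptor level of 4.74. *Gm5148*, the next gene on the other side and 1 of those 5, had a mean of 4.35 in M0505 cells, under that level, and of 4.77 in STOSE cells, just above it. *Ankrd50*, between *Gm5148* and *Fat4*, was at −0.05 (adjusted p = 0.547), and *Fgf2*, encoding a growth factor that acts through this pathway, was lower by 0.33 on the log2 scale (log2 fold change −0.33, adjusted p = 0.00184). The table names no build, so the order of genes is that of RefSeq assembly GRCm38.p6.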
